A study of Mus musculus with 6 samples.

Results

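The coreceptor genes Cd4, Cd8a and Cd8b1 are 3 of the 34187 gene features of this single-cell series, and they were picked by their names, with earlier results of these data known. They were followed in the T and NK cells of mouse pancreatic tumors by giving each annotated cell a coreceptor class from its UMIs, the unique molecular identifiers that count captured RNA molecules. A cell with a Cd4 UMI and no Cd8a or Cd8b1 UMI was put in the CD4 class, a cell with a Cd8a or Cd8b1 UMI and no Cd4 UMI in the CD8 class, and the remaining cells held UMIs of both kinds or no coreceptor UMI. All mice were C57BL/6 of both sexes in the study's methods, 6 to 8 weeks old at inoculation, and carried a subcutaneous 6694c2vTRP1 tumor grown from KPC pancreatic ductal adenocarcinoma cells, a single line. From day 8 they received 2 intraperitoneal doses of PBS, of mono-IL10 at 26 μg per mouse or of IL10/2-Trikine at 30.6 μg per mouse, and CD45+ cells were isolated with beads on day 14. mono-IL10 is a monomeric form of human IL-10, and IL10/2-Trikine is the same base cytokine fused to a non-signaling IL-2 variant that brings in IL-2 receptor beta. The 5 mice of a treatment were labelled with hashtag antibodies and pooled into 1 library, so there were 15 mice in 3 libraries and treatment and library cannot be told apart.

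CD4 and CD8 are surface proteins that bind MHC class II and class I molecules beside the T cell receptor and bring the kinase Lck to it. CD4 acts as a single chain, whereas CD8 is a dimer, either of 2 CD8 alpha chains (Cd8a) or of an alpha and a beta chain (Cd8a and Cd8b1). Conventional CD8 T cells carry the alpha beta form. CD8 alpha dimers alone are known from gamma-delta, NKT and gut-type T cells and from some dendritic cells, and many gamma-delta and NKT cells carry neither coreceptor. Regulatory T cells are mostly CD4 T cells.

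The deposited table gave a cluster to 2084 cells of these libraries, 516 from PBS, 843 from mono-IL10 and 725 from IL10/2-Trikine mice, with median depths of 2780, 3959 and 2635 UMIs per cell. The 9 clusters counted here as T cells held 333, 569 and 298 cells, of which 243, 441 and 181 could be assigned to a mouse. No barcode was shared between libraries among the annotated cells. The annotated cells carried between 2.10% and 16.2% of the UMIs of a coreceptor gene in a library, and the rest lay in other barcodes. Markers were checked against the cluster names. In Cycling_T the T cell markers Cd3d, Cd3e, Cd3g, Trac and Trbc2 were each found in 50.7% to 63.9% of cells, and the NK cell markers Ncr1, Klrb1c, Klre1, Tyrobp and Fcer1g in 19.5% to 63.6%. Of the Cycling_T cells, 162 of 349 held more NK than T cell marker UMIs, and by library these were 128 of 174 IL10/2-Trikine cells, 16 of 55 PBS cells and 18 of 120 mono-IL10 cells. Class shares of Cycling_T are therefore given with and without these NK-like cells, and its level of Cd8a, 299 CPM (UMIs scaled to the total of the cells) over all cells, was 513 CPM without them. In naive_T, Cd3d was found in 16.0% of 25 cells at a median of 1839 UMIs, and the naive markers Ccr7 and Lef1 were found in none and in 48.0% of them.

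Cd8b1 and Cd8a are neighbours on mouse chromosome 6. The 250 bases before the Cd8a start are shown because the transcript whose level over clusters was most like that of Cd8a and Cd8b1, the long noncoding RNA Gm44174 described further on, ends inside them. The sequence is from RefSeq in the build GRCm38.p6, plus strand, chr6:71373177-71373426, written 5′ to 3′, and it is an earlier build than the GRCm39 of the counts. Capitals mark the 60 bases that the GENCODE annotation of GRCm38 also gives to an exon of Gm44174.
Cd8a: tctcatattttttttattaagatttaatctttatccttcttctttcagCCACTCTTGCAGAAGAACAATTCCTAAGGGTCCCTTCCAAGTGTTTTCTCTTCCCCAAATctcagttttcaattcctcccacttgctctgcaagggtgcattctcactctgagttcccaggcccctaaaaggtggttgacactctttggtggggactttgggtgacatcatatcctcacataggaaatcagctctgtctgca
In that annotation Gm44174 starts 15541 bases after the end of Cd8b1 and ends 143 bases before the start of Cd8a, and all 3 genes lie on the same strand. Of the 3 coreceptor genes, Cd8a alone was matched in the promoter table used.

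Coreceptor RNA was sparse in single cells. Among the 1200 annotated T cells, 162 were of the CD4 class, 445 of the CD8 class, 9 held both kinds of UMI and 584 held no coreceptor UMI. The CD4 class rested on few molecules per cell: 81 of its 162 cells had a single Cd4 UMI, with a highest count of 24. Of the 445 CD8-class cells, 382 had Cd8a UMIs, with a median of 2.0 in those cells, and 373 had Cd8b1 UMIs, with a median of 3.0. By chain, 310 of them carried both Cd8a and Cd8b1, 72 carried Cd8a alone and 63 carried Cd8b1 alone. NK cells, which lack CD4 and the CD8 beta chain, gave the background: of 795 NK cells at a median of 3034 UMIs, 0.503% fell in the CD4 class and 0.755% in the CD8 class, against 13.5% and 37.1% of T cells at a median of 3088 UMIs. T cells with no coreceptor UMI, in which none was captured, had a lower median depth, 2709 UMIs, than CD8-class T cells, with 3725 UMIs. That order did not hold in IL10/2-Trikine, at 2824 against 2605 UMIs, nor within Cycling_T, at 6085 against 3766 for PBS, 7376 against 6305 for mono-IL10 and 3395 against 2969 for IL10/2-Trikine. Of the T cells with no coreceptor UMI, 78.8% had a T cell marker UMI, against 99.6% of the CD8 class. By treatment this was 91.4% for PBS, 89.4% for mono-IL10 and 61.8% for IL10/2-Trikine. An NK marker UMI was found in 71.0%, 70.0% and 87.8% of the same cells.

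The cluster names and the coreceptor classes matched for some clusters and not for others. The study built the T cell clusters from variable genes and named them by hand. How far coreceptor genes guided the names is not known, so their coreceptor content is given as a description. Of the 200 naive_CD8T cells, 180 were of the CD8 class and none was of the CD4 class. Treg and Cycling_Treg, the regulatory T cell clusters with Foxp3 in 63.8% and 53.1% of cells, held 39 CD4-class and 3 CD8-class cells of 127 and 15 and 1 of 32. The cluster act_CD4T held CD8-class cells in numbers, 52 of 172 beside 86 CD4-class cells, and 43 of its cells carried both Cd8a and Cd8b1. In mono-IL10 mice its 2 classes were nearly equal, with 39 CD4-class and 37 CD8-class cells, whereas the PBS cells of the cluster numbered 35 and 8 and the IL10/2-Trikine cells 12 and 7. The cluster naive_CD4T held more CD8-class than CD4-class cells, 24 against 15 of 73. This order came from mono-IL10, with 20 CD8-class and 10 CD4-class cells, whereas PBS had 4 and 5. The 21 Th17/ILCs cells, which were left out of the T cell counts, held no coreceptor UMI, and this count of 0 leaves room for 14.3% of cells with one.

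**Figure D1:**
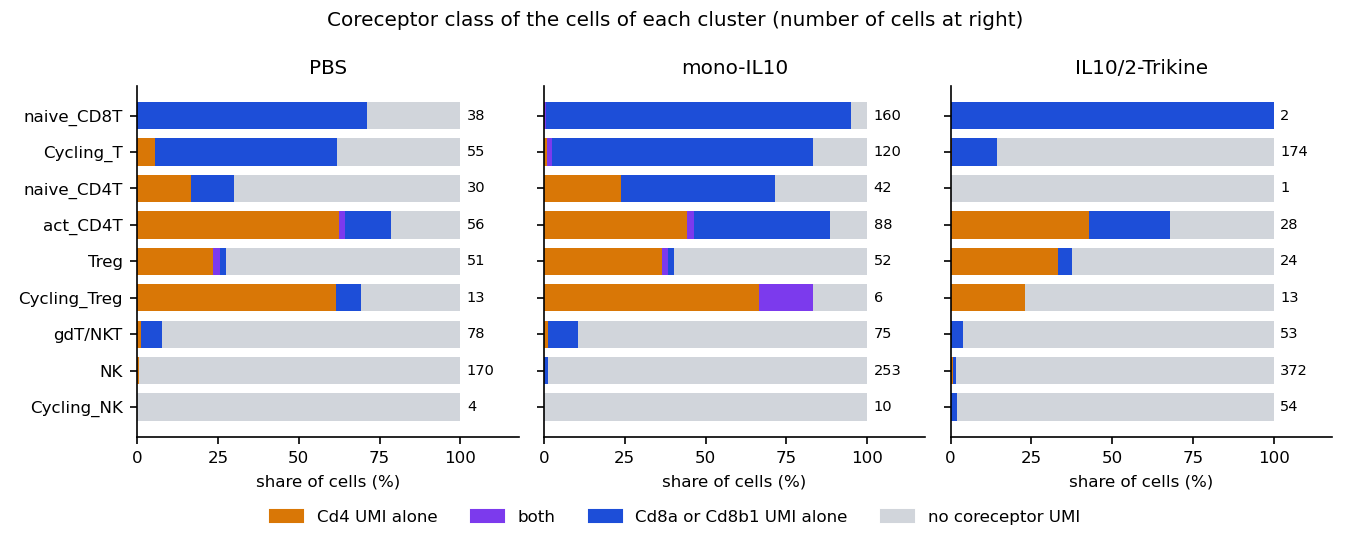
Share of cells in each coreceptor class (horizontal axis, percent) for each annotated cluster of at least 30 cells (vertical axis), with a panel per treatment and the number of cells at the right of each bar. CD8-class cells made up 42.0% of the mono-IL10 cells named act_CD4T, and cells with no coreceptor UMI 85.6% of the IL10/2-Trikine Cycling_T cells.

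Levels in CPM, the UMIs of a gene scaled to the total UMIs of a mouse's cells in a cluster, followed the same lines. Cd4 was highest in act_CD4T at 398 ± 157 CPM (SD, n = 9 mice), above Treg at 139 ± 80.6 CPM (n = 9) by more than their SDs. Treg and naive_CD4T, at 98.0 ± 137 CPM (n = 6), overlapped within their SDs. Cd4 then dropped to 6.32 ± 14.6 CPM in Cycling_T (n = 14), 5.1 ± 14.3 in NK (n = 15), 4.27 ± 12.8 in naive_CD8T (n = 9) and 3.67 ± 8.82 in gdT/NKT (n = 12), which overlapped with one another. Cd8a was highest in naive_CD8T at 463 ± 206 CPM (n = 9), and its neighbours in the order, Cycling_T at 245 ± 221 (n = 14) and act_CD4T at 238 ± 162 (n = 9), each overlapped with the next. These means differ in their mix of treatments, as no IL10/2-Trikine mouse entered naive_CD8T and 5 entered Cycling_T, at 66.5 ± 26.7 CPM of Cd8a. Within mono-IL10 mice Cd8a stood at 569 ± 219 CPM in naive_CD8T (n = 5) and 547 ± 84.1 CPM in Cycling_T (n = 4), and Cd8b1 at 823 ± 160 and 567 ± 70.1 CPM. Over all treatments Cd8b1 followed the same order, at 674 ± 275 CPM in naive_CD8T, 306 ± 208 in Cycling_T, 231 ± 173 in act_CD4T and 140 ± 193 in naive_CD4T. In gdT/NKT Cd8a stood at 59.1 ± 70.4 CPM and Cd8b1 at 34.4 ± 65.9 CPM, and in NK cells at 2.93 ± 6.42 and 3.53 ± 7.55 CPM. Mice with at least 5 cells of a cluster entered these means. In a library, fewer cells with coreceptor RNA and less coreceptor RNA per cell cannot be told apart in such sums.

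Within annotated T cells the CD8 class was most frequent in mono-IL10 mice and least frequent in IL10/2-Trikine mice. Outside the annotation, in barcodes with at least 5 T cell marker UMIs, it was 42.8% for PBS, 65.4% for mono-IL10 and 40.9% for IL10/2-Trikine, at depths given at the end. In PBS mice 1 to 5 the CD8 class made up 44.7%, 51.3%, 24.0%, 13.8% and 25.9% of T cells. In mono-IL10 mice it made up 59.7%, 48.6%, 54.2%, 63.8% and 59.3%, and in IL10/2-Trikine mice 10%, 18.5%, 10.5%, 23.5% and 20%. All IL10/2-Trikine mice lay below all mono-IL10 mice, and PBS mice overlapped with both groups. The means (± SD, n = 5 mice each) were 31.9% ± 15.5 for PBS, 57.1% ± 5.83 for mono-IL10 and 16.5% ± 5.99 for IL10/2-Trikine. By exact two-sided permutation tests over mice, adjusted over 9 tests, the CD8 class differed by -40.6 percentage points for IL10/2-Trikine minus mono-IL10 (adjusted p = 0.0179). For mono-IL10 minus PBS the difference was 25.2 points (exact permutation test, adjusted p = 0.0286), with 4 of 5 mono-IL10 mice above all PBS mice, and it lost its call when any of 7 mice was left out in turn (highest adjusted p = 0.0571). It also lost its call without Cycling_T (25.2 points, exact permutation test, adjusted p = 0.0536), without the naive clusters (18.4 points, adjusted p = 0.0714) and in thinned cells without the NK-like cells (20.6 points, adjusted p = 0.0714). The difference of -15.4 points between IL10/2-Trikine and PBS did not pass the threshold (exact permutation test, adjusted p = 0.107), and with CD8-class T cells divided by all annotated cells of a mouse it passed, at -15.0 points (adjusted p = 0.0179). With 5 mice against 5 the smallest p these tests allow is 0.00794 before adjustment.

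As a share of T cells, cells with no coreceptor UMI separated all 3 treatments. It was 41.0% to 63.8% in PBS mice, 24.2% to 29.2% in mono-IL10 mice and 67.7% to 84.2% in IL10/2-Trikine mice, with no overlap, and each of the 3 differences passed (21.7 points for IL10/2-Trikine minus PBS, 45.8 for IL10/2-Trikine minus mono-IL10 and -24.1 for mono-IL10 minus PBS, exact permutation tests, adjusted p = 0.0179 each). As a share of all annotated cells of a mouse, NK cells included, the same T cells were 36.0% for PBS, 18.9% for mono-IL10 and 32.7% for IL10/2-Trikine, and the difference between IL10/2-Trikine and PBS turned to -3.33 points (exact permutation test, adjusted p = 0.518). NK-like Cycling_T cells moved with the share of T cells. Without them IL10/2-Trikine and PBS differed by 11.6 points (exact permutation test, adjusted p = 0.214), while the CD8 class difference between IL10/2-Trikine and mono-IL10 kept its call. The CD4 class was 15.6% ± 6.06 of T cells for PBS, 13.9% ± 5.33 for mono-IL10 and 10% ± 5.40 for IL10/2-Trikine mice, with ranges that overlapped, and no difference passed (exact permutation tests, adjusted p of 0.204 to 0.603). Where at least 2 UMIs were asked for, the CD4 class differed by -8.15 points for IL10/2-Trikine minus mono-IL10 (exact permutation test, adjusted p = 0.0238). The clusters that held the CD8 class also differed in counts per library, which include cells of no mouse and were not tested. Of 36 CD8-class T cells in IL10/2-Trikine, 24 were Cycling_T and 2 naive_CD8T, whereas of 328 in mono-IL10, 97 were Cycling_T and 151 naive_CD8T, and of 81 in PBS, 31 and 27.

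**Figure D2:**
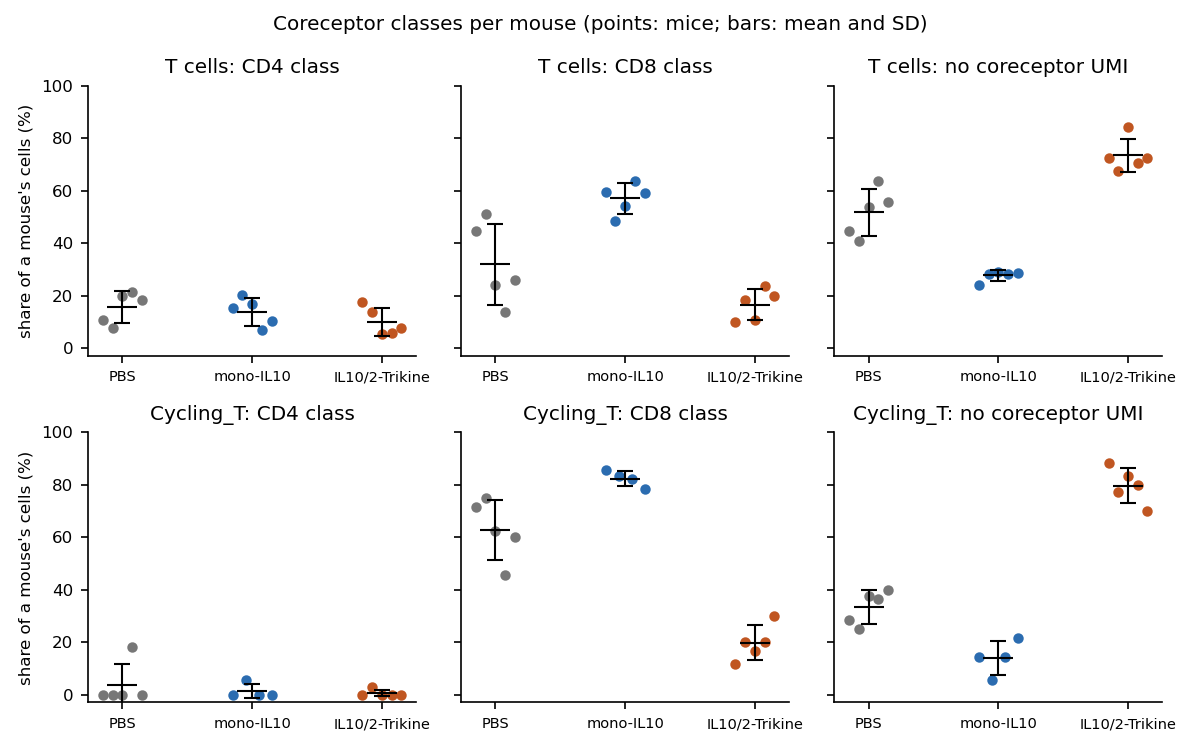
Share of a mouse's T cells (upper row) or Cycling_T cells (lower row) in the CD4 class, in the CD8 class and with no coreceptor UMI (vertical axes, percent), by treatment; points are mice, bars the mean and SD. IL10/2-Trikine mice lie between 67.7% and 84.2% for T cells with no coreceptor UMI, above all other mice.

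Cycling_T was a CD8-class cluster in PBS and mono-IL10 mice, and in IL10/2-Trikine mice most of its cells had no coreceptor UMI. The CD8 class made up 71.4%, 75%, 62.5%, 45.5% and 60.0% of Cycling_T cells in PBS mice 1 to 5. It made up 85.7%, 83.3%, 82.1% and 78.6% in mono-IL10 mice 1, 2, 4 and 5, mouse 3 having fewer than 5 such cells. In IL10/2-Trikine mice 1 to 5 it made up 11.8%, 20%, 16.7%, 20% and 30%. The 3 treatments did not overlap, and mouse by mouse the shares rested on 5 to 35 cells. All 3 differences passed by exact two-sided permutation tests over mice (-43.2 points for IL10/2-Trikine minus PBS, -62.8 for IL10/2-Trikine minus mono-IL10 and 19.6 for mono-IL10 minus PBS, adjusted p = 0.0238 each). The CD4 class was nearly missing from the cluster, with 5 of 349 cells, and its mean share per mouse was 3.64% for PBS, 1.39% for mono-IL10 and 0.571% for IL10/2-Trikine.

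These shares moved with the NK markers. Of a mouse's Cycling_T cells, NK-like cells were 29.0% ± 8.26 with PBS (SD, n = 5), 14.7% ± 5.94 with mono-IL10 (n = 4) and 64.6% ± 10.1 with IL10/2-Trikine (n = 5). Of the 162 NK-like cells, 157 had no coreceptor UMI and none had a Cd4 UMI. Among the other Cycling_T cells the CD8 class held 93.1% with mono-IL10, 76.9% with PBS (30 of 39) and 47.8% with IL10/2-Trikine (22 of 46). No coreceptor UMI was found in 23 of those 46 cells, against 6 of the 39 with PBS and 4 with mono-IL10. NK and T cell markers moved with this too: in IL10/2-Trikine, PBS and mono-IL10, each of the 5 T cell markers was found in 73.9% to 82.6%, 82.1% to 97.4% and 92.2% to 96.1% of these other cells and each of the 5 NK markers in 4.35% to 41.3%, 0% to 23.1% and 0% to 31.4%. Per mouse, 2 IL10/2-Trikine mice still had at least 5 such cells, with CD8 shares of 50% and 40.0%, against 55.6% to 100% in 4 PBS mice and 87.5% to 100% in 4 mono-IL10 mice. The means of mono-IL10 and PBS, 94.2% and 84.7%, lay closer than in the whole cluster, their ranges overlapped, and this difference lost its call. IL10/2-Trikine then differed by -39.7 points (against PBS) and -49.2 points (against mono-IL10; exact permutation tests, adjusted p = 0.300 each), in groups of 2 and 4 mice that cannot pass the threshold after adjustment. The median depth of these cells also differed, at 3871 UMIs for PBS, 6122 for mono-IL10 and 2880 for IL10/2-Trikine. With every cell of the whole cluster thinned to 1500 UMIs, the CD8 class was 47.3% of PBS, 65.8% of mono-IL10 and 8.62% of IL10/2-Trikine Cycling_T cells, and the difference between mono-IL10 and PBS mice did not pass (21.8 points, exact permutation test, adjusted p = 0.214).

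**Figure D3:**
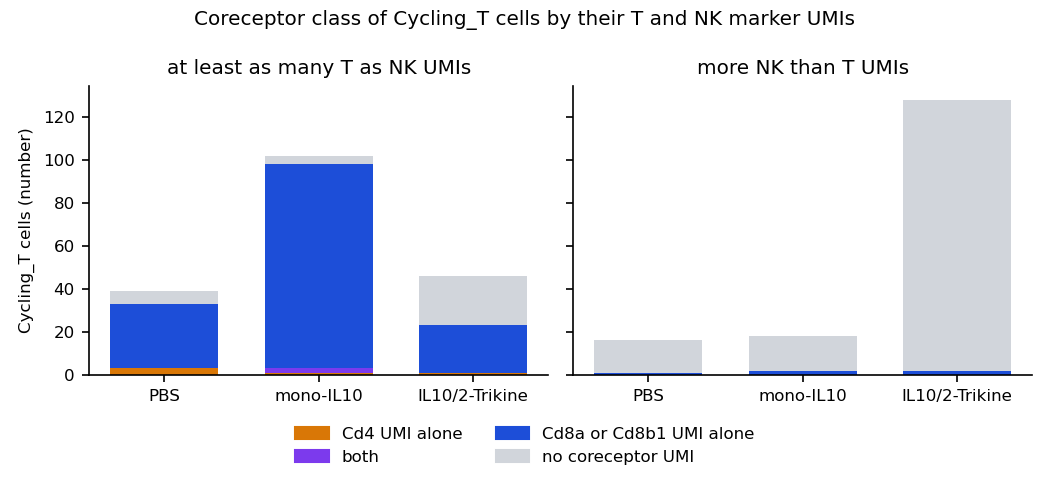
Number of Cycling_T cells (vertical axis) by treatment and coreceptor class, for cells with at least as many T as NK marker UMIs (left) and for cells with more NK than T marker UMIs (right). IL10/2-Trikine holds 128 of the 162 cells on the right, where 157 cells have no coreceptor UMI.

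Whether the treatments differed more in Cycling_T than in other T cells was tested within mice. The CD8 share of Cycling_T exceeded that of the same mouse's other T cells by 31.4 to 45.8 points in PBS mice and by 22.3 to 45.8 points in mono-IL10 mice. In IL10/2-Trikine mice it stood 3.07, 3.33, 16.7, -8.57 and 20 points apart. The mean excess was 38.0 points for PBS, 32.4 for mono-IL10 and 6.90 for IL10/2-Trikine, which differed from both (-31.1 points from PBS and -25.5 from mono-IL10, exact permutation tests, adjusted p = 0.0476 each). With a mouse left out in turn, these calls were lost in 5 and 9 of 10 runs (exact permutation tests, highest adjusted p = 0.0857 and 0.107). The differences stayed between -34.4 and -27.3 points from PBS and between -28.9 and -21.0 points from mono-IL10. A smaller group raises the smallest p these tests allow, so the losses do not show that a call rested on a single mouse. In IL10/2-Trikine mice 3 and 4 the other T cells numbered 7 each. mono-IL10 and PBS differed by -5.61 points (exact permutation test, adjusted p = 0.514). Without the NK-like cells the differences were -26.5 and -12.5 points (exact permutation test, adjusted p = 0.267 each), in groups of 2 and 4 mice where the smallest p these tests allow is 0.133 before adjustment. For the CD4 class no difference passed (exact permutation tests, adjusted p of 0.514 to 0.889).

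Most gdT/NKT cells had no coreceptor UMI under each treatment. Of its 206 cells, 190 had no coreceptor UMI, 14 were of the CD8 class and 2 of the CD4 class. Of the CD8-class cells, 10 carried Cd8a alone, 4 carried both genes and none carried Cd8b1 alone. With so few UMIs Cd8b1 RNA can be missed in a cell, so Cd8a alone does not show that the beta chain was lacking. Cd8b1 UMIs were found in mono-IL10 cells, 16 beside 17 of Cd8a, and not in PBS cells, with 8 of Cd8a, or IL10/2-Trikine cells, with 2 of Cd8a. The CD8-class share per mouse was 33.3% in 1 PBS mouse and 0.00% in the other 4, 0.00% to 22.2% in mono-IL10 mice (mean 13.1%), and 8.33% and 12.5% in the 2 IL10/2-Trikine mice with at least 5 cells. No difference passed (exact permutation tests, adjusted p = 1). With 2 IL10/2-Trikine mice against 5 of each other treatment, the comparisons with IL10/2-Trikine could not pass and do not show that the shares were alike. In this cluster each of the 4 gamma-delta markers was found in 13.1% to 20.9% of cells, each of the 5 T cell markers in 40.3% to 68.4% and each of the 5 NK markers in 18.0% to 89.3%.

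The balance of the 2 CD8 chains overlapped between treatments. Cd8b1 made up 45.7%, 50.6%, 71.4%, 50% and 64.7% of the Cd8a plus Cd8b1 UMIs of CD8-class T cells in PBS mice 1 to 5, and 51.2%, 50.5%, 60.3%, 57.2% and 48.4% in mono-IL10 mice. In the 3 IL10/2-Trikine mice with at least 10 such UMIs it made up 54.5%, 47.4% and 43.8%, and these rested on 11, 38 and 16 UMIs. The means were 56.5%, 53.5% and 48.6%, the ranges overlapped, and no difference passed (exact permutation tests, adjusted p of 0.536 to 0.603). Over clusters, pooled over treatments, Cd8b1 made up 57.4% of CD8 UMIs in naive_CD8T (95% Clopper-Pearson interval 54.0% to 60.7%, 868 UMIs), 51.9% in Cycling_T (48.9% to 54.9%, 1085 UMIs), 48.1% in act_CD4T (42.8% to 53.3%, 364 UMIs) and 37.2% in gdT/NKT (23.0% to 53.3%, 43 UMIs). Most of the UMIs of naive_CD8T (793 of 868) and Cycling_T (877 of 1085) came from mono-IL10, where the shares were 57.0% and 50.3%, and in PBS they were 60.6% and 61.7%. These intervals cover counting error only.

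Summed over a mouse's T cells, the CD8 genes had the order of the CD8-class shares, which rest on the same UMIs and so are not separate evidence. Cd4, which encodes the MHC class II coreceptor, stood at 77.7, 18.8, 152, 177 and 85.1 CPM in PBS mice 1 to 5, at 109, 98.3, 163, 50.6 and 103 CPM in mono-IL10 mice, and at 86.8, 63.3, 17.4, 21.4 and 49.6 CPM in IL10/2-Trikine mice. These groups overlapped throughout. Cd8a, which encodes the alpha chain, stood at 246, 263, 87.9, 73.9 and 56.7 CPM in PBS, at 419, 396, 229, 382 and 459 CPM in mono-IL10, and at 39.5, 97.4, 34.7, 42.7 and 74.4 CPM in IL10/2-Trikine mice. Cd8b1, which encodes the beta chain, stood at 207, 269, 211, 70.2 and 104 CPM, at 437, 421, 348, 511 and 434 CPM, and at 47.4, 87.7, 34.7, 150 and 57.9 CPM. For both CD8 genes all IL10/2-Trikine mice lay below all mono-IL10 mice, and PBS mice 1 and 2 lay above the other PBS mice for Cd8a.

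The sums were compared with edgeR's quasi-likelihood test in 1 fit of all 15 mice, with Benjamini-Hochberg adjustment over 3125 genes. Between mono-IL10 and PBS, 2 of the 3 genes passed, where 1.54% of all genes did: Cd8a was higher by 1.46 ± 0.27 and Cd8b1 by 1.41 ± 0.22 on the log2 scale (± SE, adjusted p = 0.00327 and 0.00073). Between IL10/2-Trikine and mono-IL10, 2 of the 3 passed, where 12.3% of all genes did, with Cd8a at -2.54 ± 0.35 and Cd8b1 at -2.62 ± 0.30 (edgeR, adjusted p = 2.53e-05 and 2.01e-06). Between IL10/2-Trikine and PBS, 1 of the 3 passed, where 8.35% of all genes did: Cd8b1 at -1.21 ± 0.35 (edgeR, adjusted p = 0.0300), beside Cd8a at -1.08 ± 0.42 (adjusted p = 0.108). That Cd8b1 call was lost without the NK-like Cycling_T cells (-0.68, edgeR adjusted p = 0.358), without the naive clusters (-1.05, adjusted p = 0.0958) and when 7 of the 10 mice were left out in turn. Cd4 stood at -0.94 ± 0.46 for IL10/2-Trikine minus PBS, -0.78 ± 0.43 for IL10/2-Trikine minus mono-IL10 and -0.16 ± 0.33 for mono-IL10 minus PBS (edgeR, adjusted p = 0.217, 0.264 and 0.885). With no filter on low counts Cd4 passed for IL10/2-Trikine minus mono-IL10 (-0.94, edgeR adjusted p = 0.0458) and Cd8a for IL10/2-Trikine minus PBS (-1.16, adjusted p = 0.00173). With every mouse thinned to the smallest total, Cd8a passed for IL10/2-Trikine minus PBS (-2.01, edgeR adjusted p = 0.0155) and not for mono-IL10 minus PBS (1.0, adjusted p = 0.147). Comparisons that share a treatment share its mice.

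**Figure D4:**
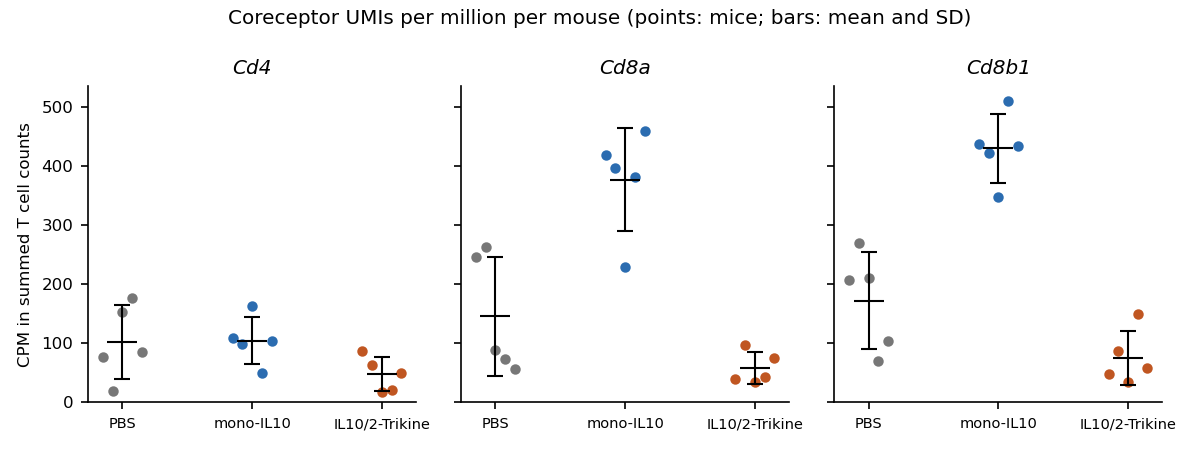
CPM of Cd4, Cd8a and Cd8b1 in the summed T cell counts of each mouse (vertical axis) by treatment; points are mice, bars the mean and SD. Cd8b1 lies between 348 and 511 CPM in mono-IL10 mice and between 34.7 and 150 CPM in IL10/2-Trikine mice.

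Genes of T cell receptor signaling near the coreceptors were read in the same fit. Of 11 such genes, all tested, 4 were lower in IL10/2-Trikine than in PBS mice and none higher, where 8.35% of all genes passed in either direction (115 of 3125 lower), with a median log2 fold change of -0.36 beside -0.02 over all genes. Cd3d, Cd3e and Cd3g, the CD3 chains of the receptor, stood at -0.86, -0.57 and -0.81, and Lat, an adaptor downstream of it, at -1.13 (edgeR, adjusted p of 0.00022 to 0.0448). Without the NK-like Cycling_T cells none of the 11 passed in that comparison, where 3.14% of all genes did (83 of 2645). Against mono-IL10, 5 of the 11 were lower and none higher, where 12.3% of all genes passed (178 of 3125 lower), among them Cd3g at -1.56 ± 0.15, and 4 of them passed without the NK-like cells, where 6.20% of all genes did (164 of 2645): Cd3d, Cd3g, Lat and the phosphatase gene Ptpn22. Between mono-IL10 and PBS, 1 of the 11 passed, where 1.54% of all genes did: Cd3g at 0.74 ± 0.13 (edgeR, adjusted p = 0.00182). Without the NK-like cells it stood at 0.72 (edgeR, adjusted p = 0.00373), where 1.21% of all genes passed. Lck, which encodes the kinase that both coreceptors bind, passed in no comparison.

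Of 15 genes of coreceptor choice, transcription factors and regulators that set CD4 or CD8 expression in the thymus, 13 passed the filter on low counts. Of these, 2 passed against PBS and 3 against mono-IL10 in IL10/2-Trikine mice, beside the 8.35% and 12.3% of all genes. Zbtb7b, which encodes the CD4 lineage factor ThPOK, was not among them. Runx3, the CD8 lineage factor that silences Cd4, stood at 0.24 ± 0.18 for IL10/2-Trikine minus PBS, 0.05 ± 0.17 for IL10/2-Trikine minus mono-IL10 and 0.19 ± 0.16 for mono-IL10 minus PBS, none past the threshold. Runx1 was higher in IL10/2-Trikine than in PBS (0.60 ± 0.19, edgeR adjusted p = 0.0456) and mono-IL10 mice (0.66 ± 0.17, adjusted p = 0.0124), and without the NK-like cells it stood at 0.42 and 0.46 (adjusted p = 0.320 and 0.196). Tox was lower than in PBS (-0.74 ± 0.19, adjusted p = 0.0145), and against mono-IL10 Bcl11b was lower (-1.24 ± 0.28, adjusted p = 0.00370) and Myb higher (1.71 ± 0.30, adjusted p = 0.00040). Without the NK-like cells Gata3 alone of the list passed, higher than in mono-IL10 mice (1.05, adjusted p = 0.0289) and beside the 6.20% of all genes, while Tox stood at -0.63 against PBS (edgeR, adjusted p = 0.0756), Bcl11b at -0.73 against mono-IL10 (adjusted p = 0.102) and Myb did not pass the filter on low counts. Between mono-IL10 and PBS none of the 13 passed, where 48 of 3125 genes did.

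What else set CD4-class and CD8-class T cells apart was compared within mice, on genes other than the coreceptors. The 13 mice with at least 3 cells of each class gave 114 CD4-class and 355 CD8-class cells. With the mouse as a block and a minimum count of 1, a filter chosen after the default of 10 had left 587 genes (147 of them called, 25.0%), 634 of 4819 genes passed (13.2%; edgeR, adjusted p under 0.05), 323 higher in the CD4 class and 311 in the CD8 class. The genes named here were chosen after their values were seen, from those with the smallest p. Of the genes higher in the CD4 class, Lgals7 had the smallest p, at 6.23 ± 0.38 on the log2 scale and higher in 12 of 13 mice. Others were Il2ra, the IL-2 receptor alpha chain, by 3.57 ± 0.22, Sdf4 by 2.93 ± 0.20, Tnfrsf4, which encodes OX40, by 3.57 ± 0.23, and Foxp3, the regulatory T cell factor, by 5.27 ± 0.43, with Il2ra, Sdf4 and Tnfrsf4 higher in 13 of 13 mice and Foxp3 in 12. Treg and Cycling_Treg held 39 and 15 of the 162 CD4-class cells and 3 and 1 of the 445 CD8-class cells, and 0 of the 86 CD4-class cells in act_CD4T had a Foxp3 UMI. Among those higher in the CD8 class were the chemokine genes Ccl5 (-4.51 ± 0.19, CD4 class minus CD8 class) and Xcl1 (-3.39 ± 0.32), the surface protein gene Ly6c2 (-4.77 ± 0.35) and the cytotoxic granule gene Nkg7 (-1.47 ± 0.17), with Ccl5, Ly6c2 and Nkg7 higher in 13 of 13 mice. Summed over mice, Ccl5 stood at 224 CPM in the CD4 class and 7462 CPM in the CD8 class. The SEs and p-values of this contrast depended on the count filter. With the minimum count of 10, Ccl5 stood at -4.43 ± 0.41 (edgeR, adjusted p = 4.49e-08, against 1.49e-100 with a minimum count of 1). The SE of Tnfrsf9 rose from 0.18 to 0.26 and that of Lck fell from 0.23 to 0.18. Lgals7, Foxp3, Xcl1 and Ly6c2 did not pass that filter.

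The same contrast was made inside act_CD4T, where both classes were frequent. Over the 5 mice with at least 3 cells of each class, 33 CD4-class and 31 CD8-class cells, 79 of 3293 genes passed (2.40%; edgeR). These were mono-IL10 mice 1, 2, 4 and 5 and IL10/2-Trikine mouse 2. No PBS mouse entered, so the contrast rests mostly on the mono-IL10 library. On the log2 scale, CD4 class minus CD8 class, Ccl5 stood at -5.55 ± 0.34 and Xcl1 at -4.83 ± 0.42, both lower in the CD4 class, and Il2ra at 2.83 ± 0.50 (edgeR, adjusted p = 4.15e-06). Tnfsf8 and Tnfsf11, which encode the CD30 and RANK ligands, were higher by 2.87 ± 0.46 and 2.50 ± 0.38. Tnfrsf4 stood at 1.38 ± 0.38 (adjusted p = 0.0170) and Nkg7 at -0.79 ± 0.22 (adjusted p = 0.0210), while Foxp3 did not pass the filter on low counts. Areg, Maf and Tnfrsf9, which were higher in the CD4 class over all T clusters, stood at 0.57, 1.37 and 0.02 here (edgeR, adjusted p = 0.880, 0.602 and 0.992). Cd3d, a pan-T gene, stood at -0.15 ± 0.26 (adjusted p = 0.945).

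Over all T clusters, 2 of the 13 tested genes of coreceptor choice were higher in the CD4 class and 1 was lower, and of the 11 signaling genes none was higher and 1 was lower, beside the 13.2% of all genes. Gata3, a factor of CD4 lineage choice, was higher in the CD4 class by 2.23 ± 0.29 (edgeR, adjusted p = 9.47e-13) and in 13 of 13 mice. Without the naive clusters and Cycling_T, where 239 of 4192 genes passed (5.70%) over 7 mice, Gata3 stood at 2.40 ± 0.47 (edgeR, adjusted p = 2.27e-05), and inside act_CD4T at 1.86 ± 0.64 (adjusted p = 0.111), higher in 5 of 5 mice. Tox was higher by 0.76 ± 0.23, and Lef1, a factor of naive and early T cells, was lower at -2.18 ± 0.39. Ptpn22 was lower at -1.09 ± 0.21. Without the naive clusters and Cycling_T, Tox stood at 1.03 (adjusted p = 0.0514), Lef1 at -1.62 (adjusted p = 0.155) and Ptpn22 at -0.89 (adjusted p = 0.0413). Of the signaling genes Cd247, which encodes the CD3 zeta chain, stood at 0.48 over all T clusters (edgeR, adjusted p = 0.213), at 1.32 without the naive clusters and Cycling_T (adjusted p = 0.0180, higher in 7 of 7 mice) and at 1.43 inside act_CD4T (adjusted p = 0.170). Inside act_CD4T Tox stood at 0.21 (edgeR, adjusted p = 0.955) and Ptpn22 at -0.84 (adjusted p = 0.367), and Lef1 did not pass the filter. Over all T clusters Runx3 stood at 0.30 ± 0.24 (adjusted p = 0.490), and Zbtb7b and Patz1 did not pass the filter.

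**Figure D5:**
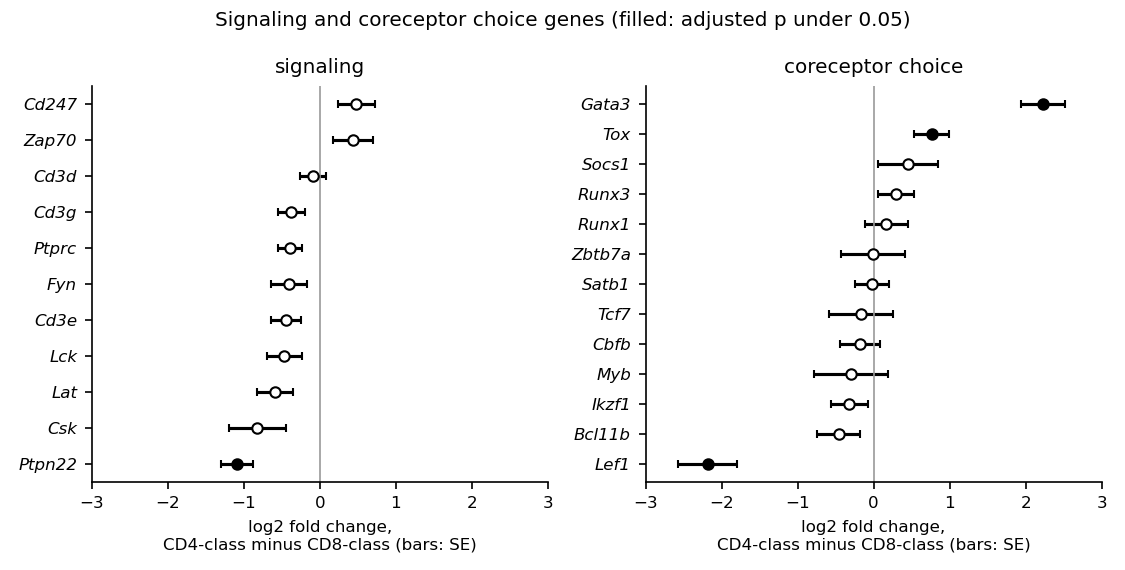
Log2 fold change, CD4-class minus CD8-class T cells within mice (horizontal axes, bars are SE), for the signaling genes (left) and coreceptor choice genes (right) that passed the filter; filled points have an adjusted p under 0.05. Gata3, at 2.23, and Lef1, at -2.18, lie farthest from 0.

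The genes most like each coreceptor gene were found from the correlation of log2(CPM + 1) over the 9 clusters with at least 30 cells, which share libraries and depth, so r is a description. For Cd4 these were Eea1, Baz1a, Rora, Rab11fip1 and Tiam1 (Pearson's r of 0.952 to 0.962). For Cd8a they were Gm44174 (r = 0.959), the T cell receptor segment Trbv17, Cd8b1 (r = 0.943), the granzyme gene Gzmk and Tomm20, and for Cd8b1 Gm44174 (r = 0.973), Spats2, Cd8a, Ms4a6b and Trbv17. Cd4 and Cd8a had an r of 0.018. Gm44174, the transcript whose exon reaches into the Cd8a upstream sequence shown above, was found in 103 of 445 CD8-class T cells and in 0 of 162 CD4-class T cells, a count that leaves room for a share of 1.85%. It was also found in 4 of 584 T cells with no coreceptor UMI and in none of 795 NK cells. Gm44174 UMIs were present in 89 of 328 CD8-class cells of mono-IL10, 8 of 81 of PBS and 6 of 36 of IL10/2-Trikine, at median depths of 3967, 3223 and 2605 UMIs. As the gene overlaps the region just before Cd8a, reads that belong to Cd8a and reads of Gm44174 may not be told apart there.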

How the data were processed

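CD45+ tumor cells were captured with a 10x GEM-X 5′ kit. The deposited matrices hold raw UMI counts that the authors made with Cell Ranger on GRCm39, and the deposited table of T and NK cells gives each cell's cluster, hashtag, mouse and percent of mitochondrial counts from the authors' Seurat 5.1.0 processing, which removed cells with under 1000 genes or over 10% mitochondrial reads. Cells of a further group in that table, for which no sample was analysed here, were left out. Barcodes of the table were joined to the matrices, and no further cell filter or doublet caller was applied. Cells with no assigned mouse entered library counts and not the tests.

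Shares were computed for mice with at least 5 cells (at least 10 CD8 UMIs for the Cd8b1 share) and tested between treatments with two-sided exact permutations of mice (SciPy 1.17.1), with Benjamini-Hochberg adjustment within each family and a threshold of 0.05. T cell counts summed per mouse were tested with edgeR 4.0.16 (TMM scaling, quasi-likelihood, default filter on low counts) in R 4.3.3, and DESeq2 1.42.0 was an alternative. Scripts were tested on simulated data. Mice of a treatment shared 1 library, so p-values between treatments measure the spread between mice within libraries. Those of the CD4-class against CD8-class fits depended strongly on the filter on low counts. With a minimum count of 1 they are not a firm measure of the spread between mice. Intervals and limits cover counting error only. The 3 genes and all lists were chosen with earlier results of these data known. Named genes are the 3 genes, the 2 lists and the 5 genes most like each; others are said to be chosen after their values were seen. A gene of the signaling list is not reported here and was left out of its counts. The alternatives were other UMI thresholds, thinning each cell to 1500 UMIs, leaving out clusters, NK-like cells or mice, and other count filters and scaling.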

Additional observations from a re-analysis of the deposited data

Results flagged for a closer look

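In T cells, 1 mono-IL10 mouse had a lower share with no coreceptor UMI (24.2%) than the next (28.1%), a gap large for the group's range. For the CD4 class of Cycling_T, a single mouse stood above 0 in each treatment, at 18.2% with PBS, 5.56% with mono-IL10 and 2.86% with IL10/2-Trikine. In gdT/NKT, 1 PBS mouse had a CD8 share of 33.3% where the other 4 were at 0, and with it 66.7% of cells with no coreceptor UMI where the next mouse had 95.2%. The CD4 share of gdT/NKT was above 0 in 1 PBS mouse (4.76%) and 1 mono-IL10 mouse (11.1%). Chance marks about 1 in 20 groups of continuous values in this way, a rate that does not hold for shares with many zeros, where 1 mouse above 0 is enough.

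The excess of the CD8 class in Cycling_T over the same mouse's other T cells differed between treatments, by -31.1 points for IL10/2-Trikine minus PBS and by -25.5 points for IL10/2-Trikine minus mono-IL10 (exact permutation tests over mice, adjusted p = 0.0476 each). Leaving out a mouse ended the first call in 5 of 10 runs and the second in 9 of 10. It also raises the smallest p these tests allow, so the losses do not show that a call rested on a single mouse. NK-like cells made up 64.6% of a mouse's Cycling_T cells on average with IL10/2-Trikine, and without them the differences were -26.5 and -12.5 points, with 2 IL10/2-Trikine mice and 4 of each other treatment, too few for these tests to pass.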

How the results depend on the processing

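No paired analysis was possible because hashtag numbers only name mice within a library and tie no mice across treatments. Depth limits the classes, since a class rests on 1 UMI in many cells. Of 292 values under settings other than leaving out a mouse, 201 under planned settings and 24 under added settings were counted as unchanged. The added settings, chosen after seeing the data, were thinning without NK-like cells, cells with a T cell UMI, and the class comparison. For tested differences, unchanged meant the same direction and side of the threshold. For genes called it meant a number near the main number, and for library shares a difference within the smaller SD of the groups compared. The cause of the changes was not tested. In the differences below, A is IL10/2-Trikine minus PBS, B IL10/2-Trikine minus mono-IL10 and C mono-IL10 minus PBS.

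In T cells, the CD4 class stood at -8.15 (B, now past the threshold) and 3.07 (C) points with at least 2 UMIs, 0.747 (B) without NK-like cells, 1.76 (A) and 2.53 (B) without Cycling_T, and 1.74 (C) without naive clusters. The CD8 class stood at 25.2 (C, adjusted p = 0.0536 by exact permutation) without Cycling_T, 18.4 (C) without naive clusters, 20.6 (C) when thinned without NK-like cells, and -15.0 (A, now past the threshold) with CD8-class T cells divided by all annotated cells. The share with no coreceptor UMI stood, for A, at 11.6 without NK-like cells, 11.1 without Cycling_T, 13.0 when thinned without NK-like cells and -3.33 with such T cells divided by all annotated cells. With cells of no mouse added, library shares differed by -11.2 (CD4, A), 33.3 (CD8, C), 51.7 (none, B) and -27.7 (none, C).

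In Cycling_T, thinning gave 0.571 (CD4, B), 21.8 (CD8, C) and -20.9 (none, C). Without NK-like cells the values were 2.01 (CD4, B), -39.7, -49.2 and 9.50 (CD8, A to C) and 41.7, 49.9 and -8.16 (none, A to C). Thinned as well, they were 0.794 and 3.57 (CD4, A and B), -42.6, -55.1 and 12.5 (CD8) and 41.8, 52.6 and -10.8 (none). Among cells with a T cell UMI they were 12.7 (CD8, C) and -11.9 (none, C). The excess over other T cells without NK-like cells was -26.5 (A) and -12.5 (B). In gdT/NKT, A was -1.67 (CD8) and 1.67 (none) with at least 2 UMIs, and -2.50 and 3.45 with every mouse kept. The Cd8b1 share stood at 7.25 (C) without Cycling_T.

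In summed counts on the log2 scale, no filter gave -1.16 for Cd8a (A, edgeR adjusted p = 0.00173) and -0.94 for Cd4 (B, adjusted p = 0.0458). Thinning every mouse to the smallest total gave -2.01 (A) and 1.004 (C) for Cd8a. Cd8b1 (A) missed the threshold at -1.19 without Cycling_T, -0.68 without NK-like cells and -1.05 without naive clusters, and Cd4 (C) was 0.11 and 0.051 without Cycling_T and without naive clusters. Genes called numbered 147 (C) with no filter, 50, 148 and 25 (A to C) without Cycling_T, 83 and 164 (A and B) without NK-like cells, 234 (B) without naive clusters and 100, 105 and 12 (A to C) when thinned. Between CD4-class and CD8-class T cells they numbered 239 without naive clusters and Cycling_T, 79 in act_CD4T and 147 with a minimum count of 10.

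Leaving out each mouse in turn kept 409 of 468 values by the same rules. The ranges were, in T cells, -20.0 to -10.6 (CD8, A) and 20.6 to 30.02 (CD8, C), and in Cycling_T -3.97 to 0.571, -1.39 to 0.571 and -3.64 to 1.39 (CD4, A to C), -65.3 to -60.8 and 15.2 to 22.6 (CD8, B and C) and 63.1 to 68.4 and -22.1 to -16.8 (none, B and C). The excess over other T cells was -34.4 to -27.3 and -28.9 to -21.0 (CD8, A and B) and -3.30 to 1.92 (CD4, C). The CD4 share of gdT/NKT was -0.952 to 2.22 (C) and the Cd8b1 share -5.66 to 0.773 (C). Cd4 (C) was -0.41 to 0.23 and Cd8b1 (A) -1.49 to -0.99, and genes called numbered 149 to 260 (A), 271 to 388 (B) and 19 to 59 (C).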

Other observations

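Most coreceptor RNA lay outside the annotated cells. Among barcodes with no annotation and at least 5 T cell marker UMIs, the CD8 class was 42.8% of 2901 barcodes for PBS, 65.4% of 3039 for mono-IL10 and 40.9% of 1844 for IL10/2-Trikine. Their median depths were 11850, 12770 and 6367 UMIs, above the medians of 2635 to 3959 UMIs of annotated cells, and 6.20%, 5.40% and 4.50% of them held both kinds of UMI. With fewer than 5 macrophage and tumor marker UMIs it was 56.8% of 333, 75.9% of 423 and 47.5% of 122 barcodes, at median depths of 3942, 4246 and 3229 UMIs. These are values of 1 library each, with no test. Of the first barcodes, those with a Mki67 UMI were of the CD8 class in 43.4% of 958 for PBS, 66.1% of 821 for mono-IL10 and 41.8% of 479 for IL10/2-Trikine.

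Barcodes with plasmacytoid dendritic cell markers held Cd4 UMIs in 29.2%, 31.0% and 35.9% and Cd8b1 UMIs in 40.3%, 31.0% and 37.2% of 72, 29 and 78 barcodes (PBS, mono-IL10, IL10/2-Trikine). Macrophage-marker barcodes held Cd4 UMIs in 5.06%, 3.19% and 2.28%, and tumor-marker barcodes in under 1%.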
